A study of Mus musculus with 8 samples.

Results

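Type 1 conventional dendritic cells (cDC1) were examined among leukocytes of mouse liver metastases. They were chosen cell by cell: a cell counted as cDC1 if it held at least 1 unique molecular identifier (UMI, a counted mRNA molecule) of Xcr1 and Clec9a together, at least 1 of Irf8 and at least 1 of H2-Ab1, and none of C1qa, Siglech or Fscn1. Of 48214 cells that passed quality filters in 4 mice, 550 met the rule. These were 235 and 179 cells in knockout mice 1 and 2, and 89 and 47 cells in control mice 1 and 2. Below, 2 values for a genotype are mouse 1 and then mouse 2.

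The knockout mice carried floxed Tet2 and the Vav1-Cre transgene, a recombinase active across the blood lineages, so the deletion is not specific to cDC1. The control mice were Tet2fl/fl. The labels give no Cre for the controls and no ages. Tumours grew from Venus-AKTPM/LOH colorectal cancer cells injected into the spleen, and at day 30 the liver metastases were digested with collagenase A and DNase I. Live CD45.2-positive cells were sorted and read from the 5' end of transcripts in 1 library per mouse, each targeting 10000 cells.

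cDC1 take up dead cells and load their antigens onto MHC class I molecules, a route called cross-presentation, by which they prime CD8 T cells against tumours. Their development needs the transcription factors Irf8, Batf3, Id2 and Nfil3. Xcr1 is a chemokine receptor that places them near the XCL1 made by T and NK cells, Clec9a senses exposed actin of dead cells, and Tlr3 senses double-stranded RNA. In mice, cDC1 that reside in lymphoid organs carry CD8 alpha (Cd8a), and cDC1 of peripheral tissues carry CD103 (Itgae). Tet2, the deleted gene, encodes an enzyme that oxidises methylated cytosine in DNA.

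The cDC1 were deeply sampled compared with their libraries. Their median UMIs were 15232 and 12796 in knockout mice, against 13147 and 10452 in control mice, and their summed UMIs were 3611732 and 2405287 against 1195013 and 534035. Over all cells of a library the medians were 3785 and 3768 UMIs in knockout mice and 6758 and 6298 in control mice. These medians cover a different mix of cell types in each genotype. Within cDC2, the dendritic cells gated by Cd209a, they were 10579 and 9819 UMIs in knockout mice and 9356.5 and 8091 in control mice. The cDC1 depths of the genotypes overlapped. Between 272 and 303 barcodes recurred in each pair of libraries, but no cDC1 barcode did. Tet2 in cDC1 had 39.1 and 31.4 CPM (UMIs of a gene scaled to the summed UMIs of the cells, here with TMM factors) in knockout mice and 46.8 and 36.9 CPM in control mice, a log2 change of -0.28 ± 0.24 (SE) that did not pass the test (edgeR adjusted p = 0.58). Which exon is floxed is not given in the labels, and reads come from the 5' end, so this level is a limited check of the deletion. The labels call the 2 mice of a genotype biological replicates and say no more of them, and p-values measure only the spread between these mice.

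The cell type was checked with cDC1 genes that the rule did not use, at CPM scaled by total UMIs alone. Batf3 stood at 179 and 180 CPM in cDC1 of knockout mice and 131 and 135 CPM in those of control mice, and in cDC2, the gated dendritic cells with Cd209a and without Xcr1 or Clec9a, at 74.6 and 76.0 CPM against 53.5 and 53.3 CPM. Tlr3 was at 75.9 and 69.0 CPM in knockout cDC1 and 41.8 and 35.6 CPM in control cDC1, and in cDC2 at 0.574 and 2.64 CPM against 0 and 1.11 CPM. The genes chosen by the rule stood at 197 and 175 CPM in knockout mice and 121 and 155 CPM in control mice for Xcr1, and at 417 and 207 CPM and 224 and 255 CPM for Clec9a. These rule genes are given only as a description. Clec9a was also read in plasmacytoid dendritic cells, at 135 and 81.2 CPM in knockout mice and 86.8 and 83.3 CPM in control mice. In gated macrophages it stood at 34.5 and 17.3 CPM in knockout mice and 8.79 and 8.05 CPM in control mice.

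The name fitted the members unevenly. Cells that held 1 UMI of Xcr1 and Clec9a together, just inside the threshold, numbered 46 and 54 in knockout mice (19.6% and 30.2% of members) and 39 and 19 in control mice (43.8% and 40.4%). Among these, Tlr3 was found in 4.3% and 7.4% of knockout cells and 7.7% and 0% of control cells, whereas Csf1r, the growth factor receptor of monocytes and macrophages, was found in 80.4% and 79.6% of knockout cells and 89.7% and 89.5% of control cells. With 6 or more marker UMIs, Tlr3 was found in 70.0% and 79.4% of knockout cells and 79.2% and 71.4% of control cells, and Csf1r in 35.4% and 25.4% against 16.7% and 0%. Summed over 8 monocyte and cDC2 genes, the median cell with 1 marker UMI held 71.0 and 51.0 UMIs per 10000 in knockout mice and 107 and 139 in control mice, against 6.33 and 5.83 and 2.26 and 2.11 in the cells with 6 or more. Members with a single marker UMI thus resembled cDC1 least, and they made up more of the control members. For this reason most results below are also given for the 189 and 125 knockout cells and 50 and 28 control cells with 2 or more marker UMIs, and for some genes with 6 or more (130 and 63, against 24 and 14), a limit added after the data were seen. Just outside the rule, cells that failed only by a C1qa UMI numbered 37 and 15 in knockout mice and 140 and 117 in control mice, and 18 and 5 of them against 39 and 32 had 2 or more marker UMIs. Those that failed only by Siglech numbered 81 and 63 in knockout mice and 1 and 16 in control mice.

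**Figure D1:**
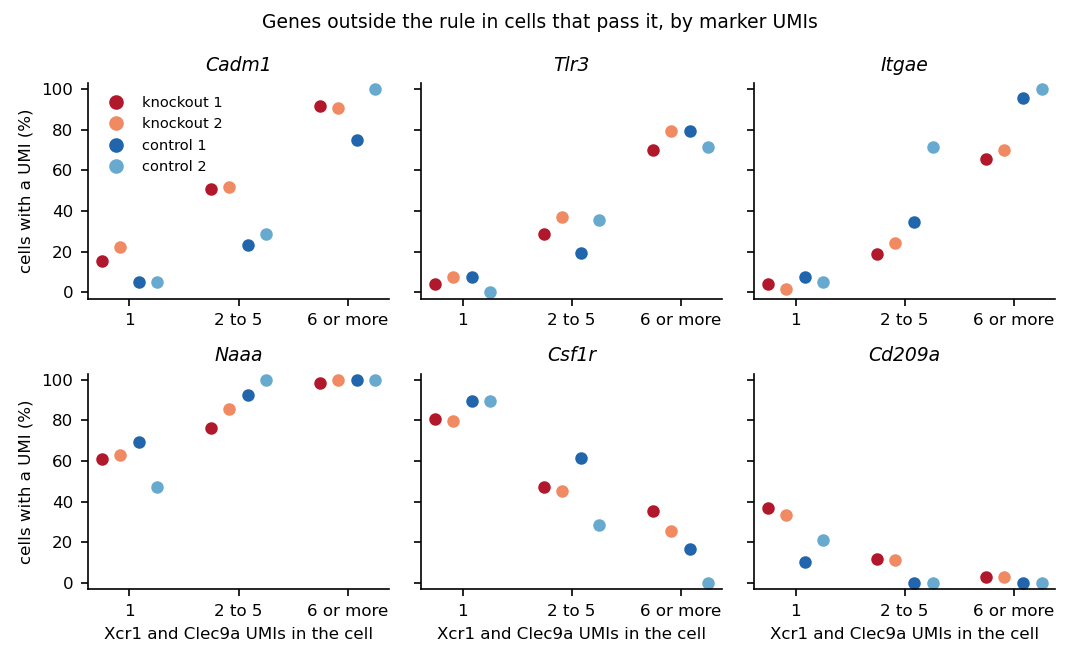
Percent of cDC1 members with a UMI of 6 genes, by their number of Xcr1 and Clec9a UMIs (1, 2 to 5, 6 or more) and by mouse. Cadm1, Tlr3, Itgae and Naaa climb with the marker UMIs in all 4 mice, while Csf1r and Cd209a decline, Csf1r being found in 79.6% to 89.7% of members with 1 marker UMI.

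Summed over 12 cDC1 genes outside the rule, the median cell with 6 or more marker UMIs held 43.6 and 43.4 UMIs of them per 10000 in knockout mice and 48.0 and 47.2 in control mice. With 1 marker UMI the medians were 4.82 and 5.65 in knockout mice and 5.50 and 3.38 in control mice, close to the 4.12 and 4.05 of knockout cDC2 and the 4.45 and 4.72 of control cDC2. Over all members the medians of 34.1 and 29.9 in knockout mice and 9.50 and 27.4 in control mice were lowest in control mouse 1. That mouse also stood apart in cells with 2 to 5 marker UMIs, where the medians were 21.6 and 28.5 in knockout mice and 8.18 and 28.3 in control mice. Of the monocyte and cDC2 genes these cells held a median of 8.99 and 7.78 UMIs per 10000 in knockout mice and 41.7 and 2.34 in control mice, so the gate of 2 or more marker UMIs still held unlike cells in control mouse 1.

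cDC1 made up a larger share of the sorted leukocytes in knockout metastases. They were 2.19% (95% Clopper-Pearson interval 1.92 to 2.48) and 1.54% (1.33 to 1.79) of cells in knockout mice, and 0.725% (0.582 to 0.891) and 0.346% (0.254 to 0.459) in control mice. The means were 1.87% ± 0.455 in knockout mice and 0.535% ± 0.268 in control mice (SD, n = 2 mice each), a ratio of 3.49. The intervals cover counting error only. Over the 11 gated classes, edgeR gave cDC1 a log2 change in share of 1.80 ± 0.48 (SE, adjusted p = 0.0245), and the exact two-sided permutation test over mice gave p = 0.33, the smallest that 2 mice against 2 allow.

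The share was also compared in narrower gates and other denominators. At 2 or more marker UMIs, cDC1 were 1.76% and 1.08% of cells in knockout mice and 0.407% and 0.206% in control mice, a log2 change of 2.21 (adjusted p = 0.0135). With cells thinned to 1000 UMIs it was 2.32 (adjusted p = 0.0327), and with up to 2 C1qa UMIs allowed it was 1.67 (adjusted p = 0.0265). Gated macrophages and monocytes made up less of the knockout samples (log2 changes of -3.57 and -2.52), and B cells more (2.94). The other dendritic cells also made up more of them: mature dendritic cells by a log2 change of 3.41 (adjusted p = 0.00255), plasmacytoid dendritic cells by 2.49 (adjusted p = 0.0282) and cDC2 by 1.24 (adjusted p = 0.0457), so a larger share was not particular to cDC1. Outside those 3 gates cDC1 were 3.46% and 2.69% of cells in knockout mice and 1.38% and 0.754% in control mice, and the log2 change of 1.52 did not pass the test (adjusted p = 0.0679). It also missed the threshold without knockout mouse 1 (1.53, adjusted p = 0.160), without knockout mouse 2 (2.03, 0.106) and without control mouse 2 (1.36, 0.0659). A single remaining mouse is assumed in these fits to vary like the other genotype.

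Set against cDC2, the cDC1 of 1 knockout mouse stood apart. cDC1 made up 59.3% and 35.9% of cDC1 and cDC2 together in knockout mice and 40.3% and 32.0% in control mice. The ranges overlapped, and the difference of 11.5 percentage points between means of 47.6% ± 16.6 and 36.1% ± 5.87 (SD, n = 2 mice each) had an exact permutation p of 0.67. Without knockout mouse 1 it was -0.25 points. In the gate of 2 or more marker UMIs, cDC1 made up 54.0% and 28.1% in knockout mice and 27.5% and 21.9% in control mice.

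**Figure D2:**
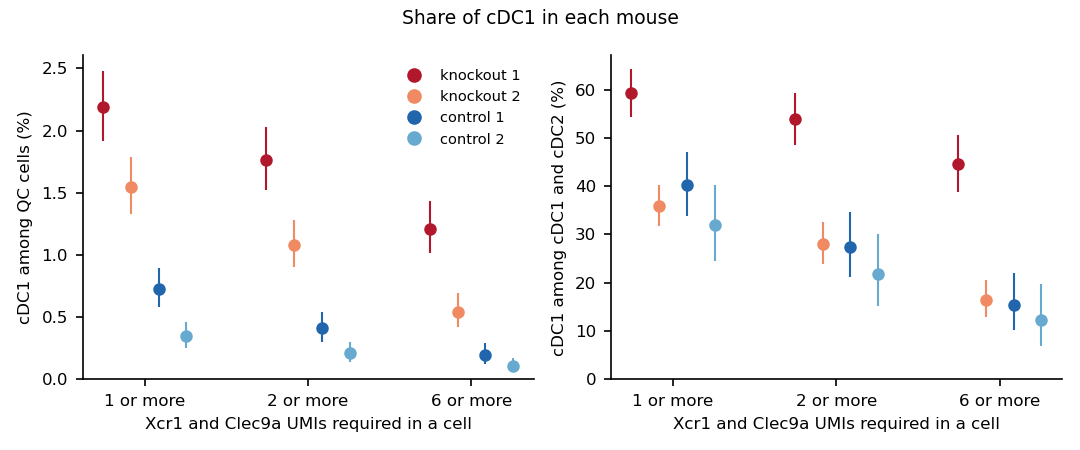
cDC1 as a percent of all quality-filtered cells (left) and of cDC1 and cDC2 together (right) in each mouse, with 95% Clopper-Pearson intervals, for gates of 1, 2 and 6 or more marker UMIs. Of all cells, both knockout mice lie above both control mice at every gate (2.19% and 1.54% against 0.725% and 0.346% at 1 or more), while of cDC1 and cDC2 knockout mouse 2 (35.9%) lies between the control mice (40.3% and 32.0%).

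UMIs were summed over the cDC1 of each mouse and genotypes were compared by edgeR's quasi-likelihood test over 9054 genes, with Benjamini-Hochberg adjustment and a threshold of 0.05. From here on, CPM of single genes over all cDC1 are scaled by TMM factors. CPM summed over lists and those of narrower gates are scaled by total UMIs alone. Of these, 561 were called (6.2%): 248 genes rose in knockout cDC1 (2.74% of genes tested) and 313 fell (3.46%), and the median log2 change over all genes was 0.03. Scaling by library totals alone gave 184 that rose and 364 that fell. Among cells with 2 or more marker UMIs, 120 of 8107 genes rose (1.48%) and 137 fell (1.69%). Of the 495 genes called over all members that were tested there, 494 kept their sign and 224 were called again. Leaving out a mouse gave between 105 calls (without knockout mouse 1) and 677 (without control mouse 2). Counts of list genes called without a mouse depend in part on these totals and are given below without the share over all genes. In what follows, fits without a mouse in which a call was lost are given with their adjusted p for the genes described at length.

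Of 26 tested genes of a cDC1 identity list, 10 rose and 2 fell, against 2.74% and 3.46% of all genes. Their median log2 change was 0.49. At 2 or more marker UMIs 5 rose and 2 fell, against 1.48% and 1.69% of genes, and the median was 0.26. At 6 or more 2 rose and 1 fell, against 57 and 57 of 6239 genes, and the median was 0.23. Omitting a knockout mouse (1 or 2) gave 2 or 6 that rose and 0 that fell, and omitting a control mouse (1 or 2) gave 3 or 11 that rose and 3 or 2 that fell. The members that rose included cDC1 surface receptors, endosomal proteins and sensors, and those that fell were Itgae and Nfil3.

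Cd8a had 50.1 and 40.5 CPM in knockout cDC1, against 3.29 and 5.54 CPM in control cDC1 (177 and 93 UMIs against 4 and 3). Both knockout mice lay far above both control mice, and the log2 change was 3.49 ± 0.39 (SE, adjusted p = 0.000321). It was 3.29 with 2 or more marker UMIs (adjusted p = 0.00197) and 2.85 with 6 or more (adjusted p = 0.00845), and it was called without any 1 of the 4 mice. In those with 2 or more marker UMIs, Cd8a was found in 25.9% (95% interval 19.8 to 32.8) and 20% (13.4 to 28.1) of cells in knockout mice, against 6% (1.25 to 16.5) and 10.7% (2.27 to 28.2) in control mice. After thinning to 2000 UMIs the shares were 8.11% and 7.2% in knockout mice and 0 of 50 and 0 of 28 cells in control mice, which at this depth allows up to 6% and 10.7% of cells with a UMI and sets no limit on cells that express the gene. B cells, which are not known to express CD8 alpha, had a Cd8a UMI in 2.26% and 3.26% of cells in knockout mice and 1.30% and 1.20% in control mice, at median depths of 3328 and 3148 UMIs and 2617 and 2868 UMIs. The T cell partner chain Cd8b1 was read in 4 and 2 of the 49 and 25 Cd8a-positive knockout cells, and in none of the 3 and 3 of the control mice.

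Itgae, whose CD103 protein binds E-cadherin, went the other way. It had 95.9 and 68.9 CPM in knockout cDC1, against 150 and 253 CPM in control cDC1. The groups did not overlap, and Itgae fell by 1.24 ± 0.27 (SE) on the log2 scale (adjusted p = 0.0375). Among cells with 2 or more marker UMIs the log2 change was -1.48 (adjusted p = 0.00294), with levels of 110 and 88.6 CPM in knockout mice and 236 and 355 CPM in control mice, and with 6 or more it was also -1.48 (adjusted p = 0.000279). Over all members the call was lost without knockout mouse 1 (adjusted p = 0.0738) and without knockout mouse 2 (0.161). Of cells with 2 or more marker UMIs, 50.8% and 47.2% in knockout mice and 64.0% and 85.7% in control mice held an Itgae UMI. After thinning to 2000 UMIs these shares were 16.2% and 14.4%, against 46.0% and 39.3%. Cells with UMIs of both Cd8a and Itgae numbered 27 and 13 in knockout mice and 3 and 3 in control mice, so the genes were not confined to separate cells.

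Treml4, a receptor of lymphoid-organ cDC1 in mice, moved with Cd8a. It had 91.1 and 93.3 CPM in knockout cDC1, against 22.2 and 18.5 CPM in control cDC1, a log2 change of 2.14 ± 0.22 (SE, adjusted p = 0.000279). Its call held without any 1 mouse, with 2 or more marker UMIs (2.05, adjusted p = 0.00136) and with 6 or more (2.19, adjusted p = 0.00217). Of cells with 2 or more marker UMIs, 60.8% and 60.0% in knockout mice and 22% and 25% in control mice held a Treml4 UMI.

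Cadm1, an adhesion molecule that binds CRTAM on T cells, had 272 and 194 CPM in knockout cDC1, against 101 and 122 CPM in control cDC1. It rose by 1.09 ± 0.20 (SE, adjusted p = 0.00678), by 0.76 with 2 or more marker UMIs (adjusted p = 0.0335), and did not pass with 6 or more (0.22, adjusted p = 0.694), without knockout mouse 1 (adjusted p = 0.177) or without control mouse 1 (0.148). Tlr3 rose by 0.95 ± 0.21 (SE, adjusted p = 0.0169) but did not pass with 2 or more marker UMIs (0.66, adjusted p = 0.117) and, of the fits without 1 mouse, passed only without control mouse 2 (0.0441), with 0.226 and 0.114 without knockout mouse 1 or 2 and 0.0615 without control mouse 1. Neither call survived in cells with 6 or more marker UMIs, whereas those of Cd8a and Treml4 did. Ppt1, a lysosomal thioesterase abundant in cDC1, had 1144 and 931 CPM in knockout cDC1, against 542 and 519 CPM in control cDC1 (log2 change 0.97 ± 0.14, SE, adjusted p = 0.00184). Rab7b, an endosomal GTPase, had 246 and 215 CPM, against 110 and 118 CPM in control cDC1 (1.02 ± 0.16, SE, adjusted p = 0.00242). Ppt1 and Rab7b were called with 2 or more marker UMIs too (0.74 and 0.93, adjusted p = 0.0113 and 0.00778) and each missed the threshold without knockout mouse 1 (adjusted p = 0.0991).

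Fzd1, a Wnt receptor, had 31.4 and 31.4 CPM in knockout cDC1, against 4.93 and 7.39 CPM in control cDC1. Its log2 change was 2.44 ± 0.37 (SE, adjusted p = 0.00216), 2.08 with 2 or more marker UMIs (adjusted p = 0.0107), and its call was lost without control mouse 1 (adjusted p = 0.0538). Flt3, the receptor of the dendritic cell growth factor FLT3L, and Zbtb46, a transcription factor of conventional dendritic cells, rose by 0.80 ± 0.19 and 0.98 ± 0.23 (SE, adjusted p = 0.0247 and 0.0249). Neither passed with 2 or more marker UMIs (0.52 and 0.70, adjusted p = 0.181 and 0.184), and of the fits without 1 mouse only Flt3 passed in 1, without control mouse 2 (adjusted p = 0.0104). Its other adjusted p were 0.354 and 0.142 without knockout mouse 1 or 2 and 0.224 without control mouse 1, and those of Zbtb46 were 0.271, 0.141, 0.0662 and 0.0742 in the same order, ending with control mouse 2. Nfil3, the transcription factor at the start of cDC1 development, had 71.3 and 79.8 CPM in knockout cDC1, against 245 and 133 CPM in control cDC1. It fell by 1.37 ± 0.26 (SE, adjusted p = 0.0205), and by 1.74 with 2 or more marker UMIs (adjusted p = 0.026), but not past the threshold without knockout mouse 1 (adjusted p = 0.182) or knockout mouse 2 (0.0893). Batf3 and Id2 did not pass the test (log2 changes of 0.51 and 0.46, adjusted p = 0.0718 and 0.124), nor did they with 2 or more marker UMIs (0.26 and 0.31, adjusted p = 0.448 and 0.4).

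**Figure D3:**
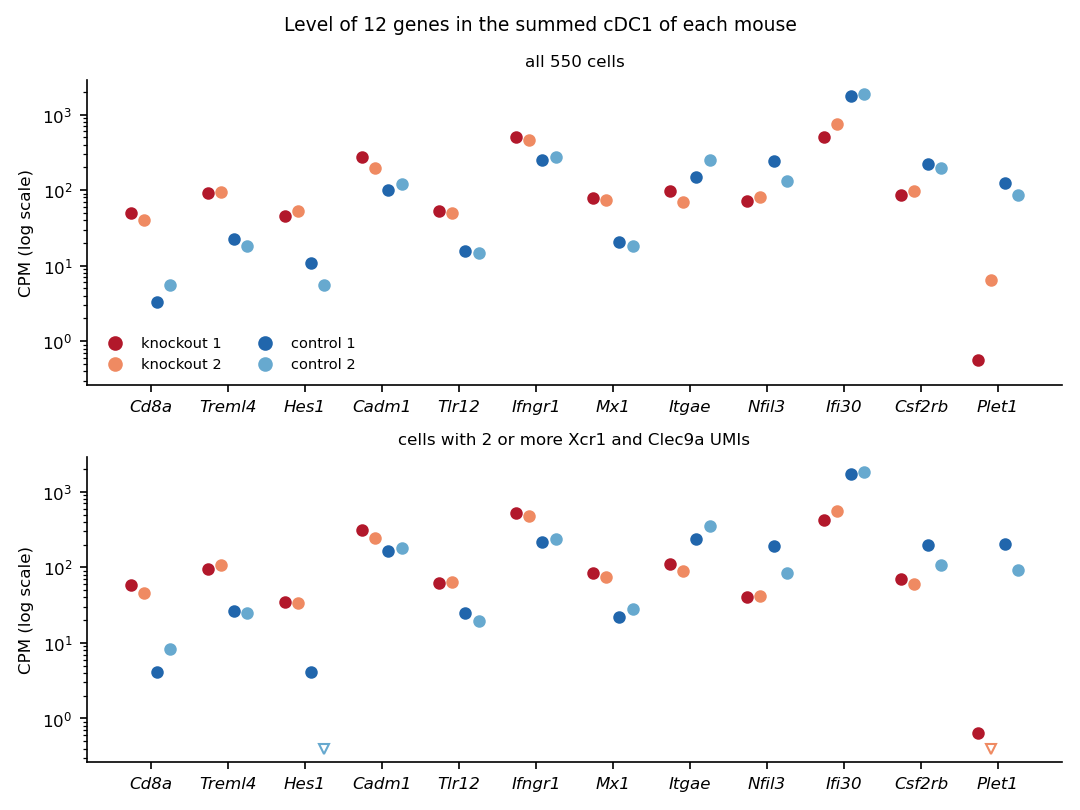
Levels of 12 genes in cDC1 of each mouse on a log CPM axis, over all members (top, TMM-scaled) and over members with 2 or more marker UMIs (bottom). Open triangles mark genes with no UMI; Cd8a (50.1 and 40.5 CPM in knockout mice, 3.29 and 5.54 CPM in control mice), Treml4 and Hes1 are higher in both knockout mice, and Itgae, Nfil3, Ifi30, Csf2rb and Plet1 are lower, at both gates.

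Other genes stood out by size alone. Among the 12 largest rises, Hes1, a target of Notch signalling, had 45.6 and 53.6 CPM in knockout cDC1, against 10.7 and 5.54 CPM in control cDC1 (log2 change 2.45 ± 0.33, SE, adjusted p = 0.000982). Hpgd, which degrades prostaglandins, had 73.3 and 95.9 CPM, against 15.6 and 12.9 CPM in control cDC1 (2.51 ± 0.27, SE, adjusted p = 0.000292). Hes1 and Hpgd were called without any 1 mouse and with 2 or more marker UMIs (adjusted p = 0.00439 and 0.0227). In that gate Hes1 had 34.5 and 33.3 CPM in knockout mice and 4.12 and 0 CPM in control mice.

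Plet1, a membrane protein, had the largest fall, to 0.566 and 6.54 CPM in knockout cDC1, against 125 and 85.0 CPM in control cDC1. Its UMIs were 2 and 15 in knockout mice and 152 and 46 in control mice. The log2 change was -5.14 ± 0.76 (SE, adjusted p = 0.0464) and was not called without control mouse 1 (adjusted p = 0.254) or control mouse 2 (0.144). In the gate of 2 or more marker UMIs Plet1 stood at 0.651 and 0 CPM in knockout mice and 202 and 91.6 CPM in control mice (adjusted p = 0.000887). In cDC2, scaled by total UMIs alone, it was read at 0 and 2.35 CPM in knockout mice and 53.5 and 0 CPM in control mice.

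Genes of monocytes and macrophages were also lower in knockout cDC1. Of 16 tested macrophage markers 6 fell and none rose (median log2 change -1.08). Of 10 monocyte markers 5 fell and none rose (median -0.92), against 3.46% of all genes that fell. Leaving out genes of the rule, no marker of either list was at 0 in any mouse. At 2 or more marker UMIs 2 of 12 and 2 of 9 fell, and at 6 or more none of 5 and none of 6, with medians of 0.28 and 0.12. Summed macrophage markers were 3950 and 4424 CPM in knockout cDC1, against 9353 and 6694 CPM in control cDC1, and monocyte markers were 4524 and 4898 CPM, against 7925 and 6846 CPM. With 2 or more marker UMIs the macrophage sums were 2256 and 2416 CPM in knockout mice and 4624 and 2224 CPM in control mice, and the monocyte sums 3083 and 3168 CPM against 4391 and 3149 CPM, so that control mouse 2 then lay at the level of the knockout mice or below it. The parts of these cells in the other differences were not tested beyond the narrower gates.

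Several of the largest falls belong with these markers. Cd14, the lipopolysaccharide co-receptor of monocytes, had 58.3 and 67.1 CPM in knockout cDC1, against 768 and 669 CPM in control cDC1, a log2 change of -3.52 ± 0.16 (SE, adjusted p = 1.99e-07). Cells with 2 or more marker UMIs had 20.2 and 32.2 CPM in knockout mice and 419 and 72.2 CPM in control mice, a difference that did not pass (-3.30, adjusted p = 0.371). Thbs1 and Fn1, matrix proteins of monocytes and macrophages, fell by 3.03 and 2.99 on the log2 scale (adjusted p = 0.0046 and 0.00383) and did not pass in that gate (adjusted p = 0.0553 and 0.11). The lysozyme gene Lyz2, the integrin Itgam and S100a4 fell by 0.63, 1.62 and 1.03 (adjusted p = 0.0164, 0.00103 and 0.00265) and did not pass in it either (adjusted p = 0.698, 0.208 and 0.124) or without knockout mouse 1 (0.378, 0.0527 and 0.133), Lyz2 also not without knockout mouse 2 (0.161). With 6 or more marker UMIs the log2 changes of Lyz2 and S100a4 were positive (0.28 and 0.80, adjusted p = 0.93 and 0.589). Hp, Dab2 and Gda had log2 changes of -2.98, -2.83 and -2.65 (adjusted p = 0.000119, 0.00189 and 0.000279). They passed with 2 or more marker UMIs too (adjusted p = 0.00197, 0.00753 and 0.005), and their changes stayed negative without any 1 mouse. That gate still held cells with many UMIs of monocyte and cDC2 genes in control mouse 1, and their part in these falls was not tested.

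Of B cell markers, 3 of 11 tested rose and none fell, against 2.74% of all genes that rose, and their summed level was 593 and 555 CPM in knockout cDC1, against 98.7 and 339 CPM in control cDC1, where 8 and 1 of the 13 markers were at 0. With 2 or more marker UMIs none of 8 was called by edgeR (3 at an unadjusted p under 0.05). None was called without a knockout mouse, 1 rose without control mouse 1 and 10 rose without control mouse 2. The knockout samples held 3312 and 4137 gated B cells, against 538 and 583 in control samples. A UMI of Cd79a or Ms4a1 was found in 35 and 27 cDC1 of knockout mice and 1 and 4 of control mice. Genes of lymphocytes were among the largest rises: Ets1, Ly6d, Satb1 and Gimap6 had log2 changes of 2.60, 3.28, 1.93 and 2.00 (adjusted p = 0.00419, 0.0377, 0.00711 and 0.00697), none of which was called without knockout mouse 1 (0.0727, 0.198, 0.109 and 0.0922) or without control mouse 1 (0.0869, 0.0572, 0.151 and 0.149). Without knockout mouse 2 Ets1 alone of them passed (adjusted p = 0.017). In the narrower gate of 2 or more marker UMIs Ets1 and Ly6d passed (adjusted p = 0.0407 and 0.00769), and Satb1 and Gimap6 did not (0.151 and 0.119). The level expected from free RNA of the library was 57.6%, 79.2%, 42.2% and 77.2% of what was read in the higher genotype. By the same estimate it was 14.9% for Cd8a, 1.83% for Treml4 and 6.77% for Hes1. Of the 248 genes that rose, 28 had an estimate of 20% or more. These estimates used 1 pooled rate of free RNA per mouse, 6.88% and 6.75% in knockout mice and 4.21% and 2.19% in control mice. Rates from single lineages varied widely. B genes gave 11.6% and 8.80% in knockout mice and 0.356% and 36.2% in control mice. T genes gave 6.92% and 9.31% against 21.1% and 2.83%. Neutrophil genes gave 4.06% and 1.09% against 3.72% and 0.733%, so the estimates are rough.

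Genes of other cells were called as well. Of 9 T cell markers 1 rose, of 7 NK cell markers 2 rose, of 8 neutrophil markers 2 fell, and of 12 cDC2 markers 1 rose and 2 fell, against 2.74% and 3.46% of all genes. In cells with 2 or more marker UMIs 2 of 5 T cell markers and 1 of 3 NK cell markers rose, 1 of 3 neutrophil markers fell, and of 11 cDC2 markers 1 rose and 2 fell. Without 1 mouse, 0 to 3 T cell markers and 1 to 2 NK cell markers rose, and 0 to 1 neutrophil markers fell, while 2 rose without knockout mouse 2. A T cell receptor contig was found for 7 and 8 cDC1 barcodes in knockout mice and 3 and 1 in control mice, and Scrublet called 4 and 8 against 1 and 0 doublets. Cd209a, a lectin of cDC2, rose to 91.7 and 135 CPM in knockout cDC1, against 32.9 and 46.2 CPM in control cDC1 (log2 change 1.57 ± 0.25, SE, adjusted p = 0.00418), a call lost without knockout mouse 2 (0.0529) and control mouse 1 (0.111). In the gate of 2 or more marker UMIs it was at 31.6 and 31.6 CPM in knockout mice and had no UMI in either control mouse.

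Genes of hypoxia and glycolysis fell together. Of 21 tested, 17 fell and none rose (3.46% of all genes fell), with a median log2 change of -0.96. At 2 or more marker UMIs 9 of 21 fell, with a median of -1.08, and with 6 or more 1 of 17 did. Omitting a knockout mouse (1 or 2) gave 4 or 8 that fell, omitting a control mouse (1 or 2) gave 12 or 18, and none rose in these fits. The list covers glucose entry, the glycolytic enzymes, lactate export and genes switched on by HIF1A, the oxygen-regulated transcription factor.

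The promoters of a glycolytic enzyme and of a lactate transporter on this list are shown because both hold ACGTG, the core of the site that HIF1A is known to bind; capitals mark ACGTG or its other-strand form CACGT, and overlapping matches run together as CACGTG. They are RefSeq sequences of build GRCm38.p6 from 250 bases before to 50 bases after the gene's start, whereas the counts were made on GRCm39. The Ldha window (1 of 2 listed, chosen for the most matches, chr7:46845554-46845853, plus strand) holds 5 matches counted on both strands. The Slc16a3 window (chr11:120948817-120949116, plus strand) holds 2 matches.
Ldha promoter: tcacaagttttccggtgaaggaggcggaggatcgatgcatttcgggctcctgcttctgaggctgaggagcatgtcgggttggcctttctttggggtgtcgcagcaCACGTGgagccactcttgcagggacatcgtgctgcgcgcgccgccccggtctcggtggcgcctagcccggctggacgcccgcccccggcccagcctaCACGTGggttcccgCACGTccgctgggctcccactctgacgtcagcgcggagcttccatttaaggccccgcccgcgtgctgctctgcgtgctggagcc
Slc16a3 promoter: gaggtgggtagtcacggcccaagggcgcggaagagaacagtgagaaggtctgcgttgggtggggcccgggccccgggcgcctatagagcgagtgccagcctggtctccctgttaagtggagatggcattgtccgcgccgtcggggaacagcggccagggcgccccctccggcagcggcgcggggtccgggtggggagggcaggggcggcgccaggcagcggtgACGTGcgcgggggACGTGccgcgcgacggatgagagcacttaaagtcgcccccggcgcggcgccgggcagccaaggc
ACGTG on either strand was present in 19.6% of 32851 such windows of all genes, and in 17 of 30 windows of the 21 list genes that matched by symbol. A match describes letters in a window and says nothing of binding.

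Along the pathway, the glucose transporter Slc2a1 had 27.2 and 41.4 CPM in knockout cDC1, against 138 and 75.7 CPM in control cDC1, and fell by 1.73 ± 0.31 (SE, adjusted p = 0.0169). Among the enzymes, Tpi1 had 180 and 195 CPM, against 493 and 408 CPM in control cDC1, and fell by 1.27 ± 0.15 (SE, adjusted p = 0.000464). Ldha, which makes lactate, had 690 and 718 CPM, against 1169 and 1053 CPM in control cDC1, and fell by 0.66 ± 0.13 (SE, adjusted p = 0.00945). In each of these the 2 genotypes did not overlap. Slc16a3, which exports lactate, had 23.2 and 17.9 CPM, against 96.2 and 90.5 CPM in control cDC1 (log2 change -2.17 ± 0.22, SE, adjusted p = 0.000237). Pgk1, Pkm and Eno1 fell by 0.78, 0.86 and 1.33 (adjusted p = 0.00945, 0.00448 and 0.000839).

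Of these, Tpi1 was called without any 1 mouse and at 2 or more and 6 or more marker UMIs (log2 changes of -1.22 and -0.88, adjusted p = 0.0047 and 0.0158). Slc16a3 was called without any 1 mouse but not at 2 or more marker UMIs (-2.01, adjusted p = 0.0699), nor was Slc2a1 (-1.76, adjusted p = 0.0917). Slc2a1, Ldha, Pgk1, Pkm and Eno1 missed the threshold without knockout mouse 1 (adjusted p = 0.12, 0.265, 0.294, 0.2 and 0.0587). Ldha and Pgk1 also missed it without knockout mouse 2 (0.162 and 0.061), and Slc2a1 without control mouse 1 (0.0854). At 2 or more marker UMIs Ldha, Pgk1, Pkm and Eno1 were called (adjusted p = 0.026, 0.0134, 0.011 and 0.0107).

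Vegfa, the vascular growth factor induced by hypoxia, had 7.92 and 12.2 CPM in knockout cDC1, against 97.8 and 57.3 CPM in control cDC1. It fell by 3.05 ± 0.31 (SE, adjusted p = 0.000294), was called without any 1 mouse, and with 2 or more marker UMIs stood at 3.58 and 3.95 CPM in knockout mice and 78.4 and 30.5 CPM in control mice (adjusted p = 0.00116). Hif1a itself fell by 1.17 ± 0.19 (SE, adjusted p = 0.003) and by 1.35 with 2 or more marker UMIs (adjusted p = 0.00598), but not past the threshold without knockout mouse 1 (0.106) or 2 (0.0707). Hilpda, a lipid droplet protein, fell by 2.46 ± 0.32 (SE, adjusted p = 0.00438) and did not pass with 2 or more marker UMIs (adjusted p = 0.428).

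Cell by cell, the 21 genes made up a median of 31.6 and 34.2 UMIs per 10000 in knockout cDC1, against 58.9 and 52.8 in control cDC1. With 6 or more marker UMIs the medians were 30.7 and 31.6 in knockout mice and 43.5 and 40.7 in control mice, and with 1 marker UMI 33.5 and 36.3 against 68.2 and 70.7. The gap was thus present at each level of marker UMIs and narrowest in the cells with most of them. It was also seen in the cDC2 gate, where the medians were 30.2 and 32.9 in knockout mice and 53.8 and 55.3 in control mice. Summed monocyte markers in cDC2 were 4845 and 5638 CPM in knockout mice and 7658 and 9201 CPM in control mice. Macrophage markers were 4552 and 4987 CPM against 7361 and 7553 CPM, and neutrophil markers 469 and 261 CPM against 2622 and 4057 CPM. The part of such cells in the cDC2 gap was not tested.

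Stress and immediate early genes rose. Of 26 tested, 11 rose and none fell (2.74% of all genes rose), with a median log2 change of 0.36, and with 2 or more marker UMIs 9 rose and none fell, with a median of 0.48. Omitting either knockout mouse gave 5 that rose and 0 that fell, and omitting a control mouse (1 or 2) gave 13 or 9 that rose and 1 or 4 that fell. The list holds heat shock chaperones and transcription factors that tissue digestion is known to induce, and every sample was digested.

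Hspe1, a mitochondrial chaperone, and Hspa1a, the inducible HSP70, are shown by their promoters because HSF1, the heat shock factor, binds repeats of GAA and its reverse TTC. The Hspe1 window (chr1:55087898-55088197, plus strand) holds 2 overlapping matches of GAANNTTCNNGAA or its other-strand form TTCNNGAANNTTC, and the Hspa1a window (chr17:34972107-34972406, minus strand) holds 1 match of the shorter GAANNTTC, which reads the same on both strands. Both are RefSeq windows of GRCm38.p6 as above, with matches in capitals.
Hspe1 promoter: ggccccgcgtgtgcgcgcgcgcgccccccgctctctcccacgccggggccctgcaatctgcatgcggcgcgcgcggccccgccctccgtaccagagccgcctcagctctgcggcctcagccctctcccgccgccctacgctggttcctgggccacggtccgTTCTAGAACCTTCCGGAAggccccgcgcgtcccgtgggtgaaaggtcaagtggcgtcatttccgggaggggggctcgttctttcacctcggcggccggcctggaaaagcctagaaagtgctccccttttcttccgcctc
Hspa1a promoter: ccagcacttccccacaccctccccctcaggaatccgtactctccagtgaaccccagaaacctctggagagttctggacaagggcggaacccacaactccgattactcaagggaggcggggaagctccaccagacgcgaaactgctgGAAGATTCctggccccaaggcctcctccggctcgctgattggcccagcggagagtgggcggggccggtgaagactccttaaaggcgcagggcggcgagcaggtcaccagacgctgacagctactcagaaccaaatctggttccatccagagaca
The longer motif was present in 0.603% of all windows and in 2 of 27 windows of the stress list, the shorter in 7.86% of all windows and in 6 of 27 of the list, for the 21 of its 26 genes that matched.

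Hspa1a had 1912 and 2181 CPM in knockout cDC1, against 634 and 465 CPM in control cDC1, a log2 change of 1.89 ± 0.16 (SE, adjusted p = 0.000119). Its near-identical copy Hspa1b, with which it may share reads, rose by 1.82 ± 0.19 (SE, adjusted p = 0.000361). Dnajb1, a co-chaperone of HSP70, had 601 and 528 CPM, against 225 and 214 CPM in control cDC1 (1.36 ± 0.14, SE, adjusted p = 0.000279). All 3 were called without any 1 mouse and in both narrower gates, and so was Hspe1, which had 816 and 854 CPM, against 405 and 369 CPM in control cDC1 (1.10 ± 0.13, SE, adjusted p = 0.000575). Hsp90aa1 rose by 1.10 ± 0.15 (SE, adjusted p = 0.0013), Jun by 0.90 ± 0.14 (SE, adjusted p = 0.00226) and Nr4a1 by 1.06 ± 0.16 (SE, adjusted p = 0.00216). With 2 or more marker UMIs all 3 were called (adjusted p = 0.00248, 0.00376 and 0.00235). Hsp90aa1 and Jun missed the threshold without knockout mouse 1 (adjusted p = 0.0587 and 0.0782), and Jun and Nr4a1 without knockout mouse 2 (0.0506 and 0.0529).

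Over 7 heat shock genes the median cDC1 held 82.8 and 94.7 UMIs per 10000 in knockout mice, against 53.7 and 39.7 in control mice. With 6 or more marker UMIs these were 86.0 and 99.9, against 75.3 and 38.2, so that control mouse 1 came nearer to the knockout mice than control mouse 2 did. In cDC2 the medians were 70.9 and 79.3 in knockout mice and 48.1 and 40.5 in control mice.

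**Figure D4:**
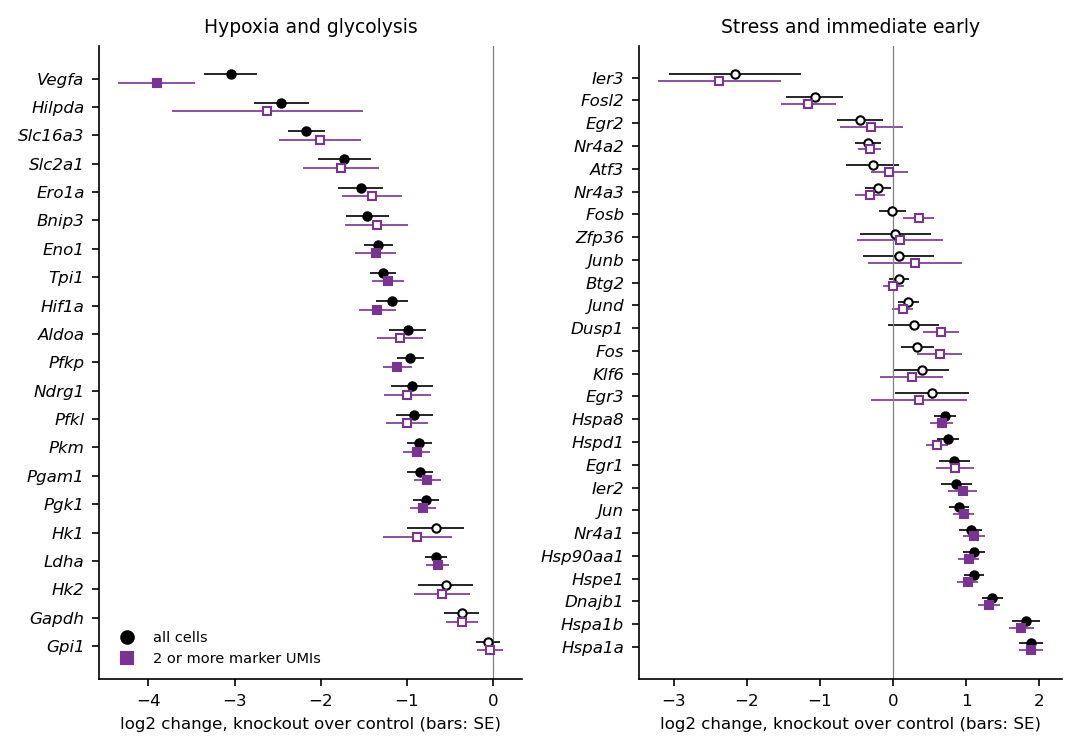
Log2 changes (knockout over control, ± SE) in cDC1 of the hypoxia and glycolysis genes (21 tested) and the stress and immediate early genes (26 tested), over all members (circles) and members with 2 or more marker UMIs (squares), filled where the adjusted p is under 0.05. Of the first list 17 genes fell, and of the second 11 rose, over all members.

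**Figure D5:**
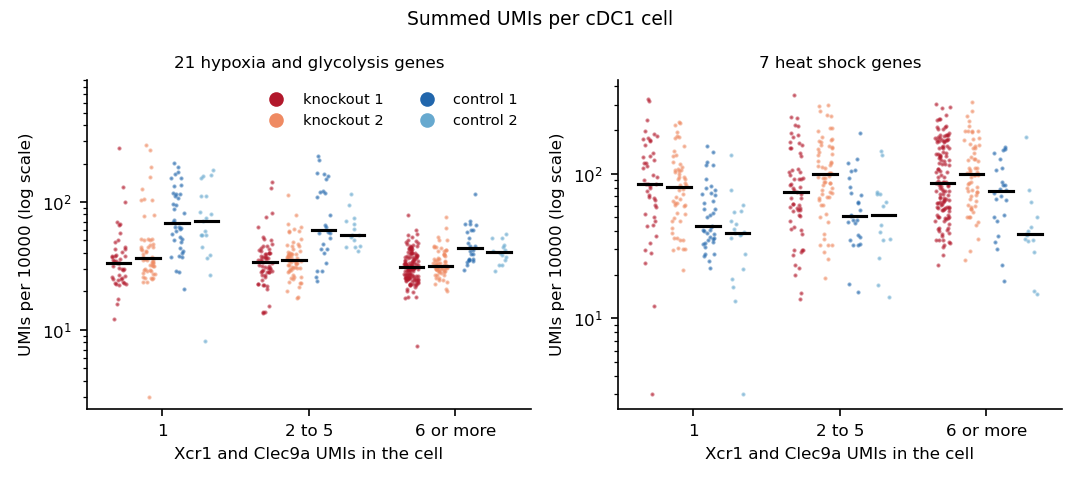
UMIs per 10000 in each cDC1 of the 21 hypoxia and glycolysis genes and of 7 heat shock genes, by number of marker UMIs and by mouse, on a log axis with bars at the medians and cells below 3 drawn at 3. For the hypoxia and glycolysis genes the knockout medians lie below the control medians at each number of marker UMIs (30.7 and 31.6 against 43.5 and 40.7 with 6 or more).

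In the lists of antigen uptake and presentation a larger share of genes rose than over all genes, from a small number of calls. Of 24 tested genes of uptake and cross-presentation, 2 rose and 1 fell (median log2 change -0.11), and of 19 MHC class I and peptide loading genes 3 rose and none fell (median 0.18), against 2.74% and 3.46% of all genes that rose and fell. The called class I genes were nonclassical: H2-Q6 and H2-T23 rose by 1.29 ± 0.21 and 0.78 ± 0.15 (SE, adjusted p = 0.00362 and 0.00952), and H2-Q4 by 0.74 ± 0.20 (SE, adjusted p = 0.0498). Of the fits without 1 mouse, the H2-Q4 call held only in that without control mouse 1 (log2 change 1.07). The H2-Q genes are near copies of each other, so reads may be split between them. H2-K1 and H2-D1, the classical class I heavy chains, did not pass (0.19 and 0.27, adjusted p = 0.466 and 0.249). H2-Q6 passed with 2 or more marker UMIs (1.15, adjusted p = 0.0238), as did H2-T23 (0.69, adjusted p = 0.0338), and both missed the threshold without a knockout mouse (adjusted p = 0.0626 for H2-Q6 without knockout mouse 2, and 0.252 and 0.0519 for H2-T23 without knockout mouse 1 and 2).

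In the MHC class II route, 4 of 14 genes rose and 2 fell (median log2 change 0.26), against 2.74% and 3.46% of all genes. In cells with 2 or more marker UMIs 1 rose and 2 fell. Omitting a knockout mouse (1 or 2) gave 0 or 1 that rose, and omitting a control mouse (1 or 2) gave 3 or 7. Ifi30, the lysosomal reductase that unfolds antigens, had 500 and 746 CPM in knockout cDC1, against 1757 and 1875 CPM in control cDC1, and fell by 1.54 ± 0.18 (SE, adjusted p = 0.000982). Its change was larger in the narrower gates (-1.78 with 2 or more and -1.89 with 6 or more marker UMIs, adjusted p = 0.000403 and 4.95e-05). Over all members the call was lost without control mouse 1 (adjusted p = 0.183) and control mouse 2 (0.101). Ctss, the protease that trims the invariant chain, fell by 0.80 ± 0.15 (SE, adjusted p = 0.00705) and by 0.68 with 2 or more marker UMIs (adjusted p = 0.0299), but not past the threshold without knockout mouse 1 (0.263) or knockout mouse 2 (0.0566).

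H2-Ob and H2-Oa, which together form an inhibitor of class II peptide loading, rose by 1.38 ± 0.22 and 0.91 ± 0.19 (SE, adjusted p = 0.00418 and 0.0127). H2-Ob had 190 and 144 CPM in knockout cDC1, against 53.4 and 81.3 CPM in control cDC1. With 2 or more marker UMIs H2-Ob passed (0.98, adjusted p = 0.0253) and H2-Oa did not (0.64, adjusted p = 0.0822), and both missed the threshold without knockout mouse 1 (adjusted p = 0.0991 and 0.278) and control mouse 1 (0.062 and 0.147), H2-Oa also without knockout mouse 2 (0.0632). B cells also express this pair. Cyba, a subunit of the oxidase that keeps phagosomes from acidifying, fell by 0.63 ± 0.13 (SE, adjusted p = 0.0114) and was called with 2 or more marker UMIs (-0.63, adjusted p = 0.026), though not without knockout mouse 1 (0.357) or 2 (0.124).

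Costimulation and T cell attraction were examined in 9 single genes, none of them called, and in 2 lists, of costimulation and of maturation. In both lists a larger share rose than over all genes, but not with 2 or more marker UMIs. The 9 genes Cd40, Cd80, Cd86, Cd274, Cxcl9, Cxcl10, Cxcl16, Ccl5 and Ccr7 had adjusted p between 0.283 and 0.996, and the 2 genotypes overlapped in 8 of them. Among 16 tested costimulation and checkpoint genes 3 rose and none fell, and among 19 maturation genes 2 rose and none fell, against 2.74% and 3.46% of all genes. In the gate of 2 or more marker UMIs none of either list rose and 1 costimulation gene fell. No gene of either list rose without a knockout mouse, and 1 costimulation gene rose and 3 fell without control mouse 2. Havcr2, which encodes TIM-3, an uptake receptor and checkpoint of cDC1, had 156 and 133 CPM in knockout cDC1, against 95.3 and 68.3 CPM in control cDC1 and rose by 0.78 ± 0.19 (SE, adjusted p = 0.0289). Cd83 and Slamf7 rose by 0.54 ± 0.14 and 0.64 ± 0.16 (SE, adjusted p = 0.0464 and 0.0328). None of the 3 passed with 2 or more marker UMIs (adjusted p = 0.0939, 0.354 and 0.313), and without 1 mouse each passed in 1 fit, Havcr2 and Cd83 without control mouse 1 (0.0308 and 0.0119) and Slamf7 without control mouse 2 (0.0275). Il12b was too low to be tested.

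Of 21 cytokines and cytokine receptors 6 rose and 1 fell (median log2 change 0.21), against 2.74% and 3.46% of all genes, and 3 rose and 1 fell with 2 or more marker UMIs. Omitting a knockout mouse (1 or 2) gave 1 or 2 that rose, and without control mouse 2, 5 rose and 5 fell. Ifngr1, the ligand-binding chain of the interferon gamma receptor, had 505 and 456 CPM in knockout cDC1, against 247 and 275 CPM in control cDC1. It rose by 0.88 ± 0.14 (SE, adjusted p = 0.00327), by 1.21 with 2 or more marker UMIs (adjusted p = 0.00145) and by 1.20 with 6 or more (adjusted p = 0.00208), and missed the threshold without knockout mouse 1 (0.12). Csf2rb, the shared chain of the GM-CSF and IL-3 receptors, had 87.2 and 96.4 CPM, against 220 and 194 CPM in control cDC1 and fell by 1.19 ± 0.16 (SE, adjusted p = 0.000982). It was called with 2 or more marker UMIs (-1.20, adjusted p = 0.0219), though not without knockout mouse 1 (0.071).

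Il18, a cytokine that acts on NK and T cells, had 65.7 and 55.8 CPM in knockout cDC1, against 26.3 and 20.3 CPM in control cDC1, and rose by 1.33 ± 0.24 (SE, adjusted p = 0.00651). It was called with 2 or more marker UMIs (1.35, adjusted p = 0.0168) and lost without knockout mouse 1 (0.138). Tgfbr1 rose by 1.35 ± 0.25 (SE, adjusted p = 0.00711), a call lost without knockout mouse 2 (0.101) and with 2 or more marker UMIs (1.29, adjusted p = 0.0582). Il15, which sustains NK and CD8 T cells, did not pass (log2 change 1.00, adjusted p = 0.0856). Of 19 chemokines and receptors 1 rose and 3 fell, against 2.74% and 3.46% of all genes. Of the 16 tested with 2 or more marker UMIs none rose and 2 fell, against 1.48% and 1.69% of genes tested there. Ccr1, a receptor of inflammatory chemokines, had 9.34 and 10.5 CPM in knockout cDC1, against 64.1 and 83.1 CPM in control cDC1 (-2.86 ± 0.26, SE, adjusted p = 0.000119), and was called without any 1 mouse and with 2 or more marker UMIs (-2.73, adjusted p = 0.0238).

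Among innate sensors and adaptors, 3 of 25 rose and 5 fell, against 2.74% and 3.46% of all genes. In the gate of 2 or more marker UMIs 1 of 21 rose and 4 fell, and no gene of the list was called by edgeR without knockout mouse 1. The 3 that rose were the nucleic acid and profilin sensors of cDC1, Tlr3, Tlr11 and Tlr12, and the 5 that fell were Tlr2, Nlrp3, Myd88, Nfkb1 and Sting1. Tlr11 and Tlr2 had log2 changes of 1.33 and -1.16 (adjusted p = 0.0134 and 0.0108) and did not pass with 2 or more marker UMIs (0.0544 and 0.108), without knockout mouse 1 (0.26 and 0.252) or without control mouse 1 (0.201 and 0.111). Nfkb1 and Myd88 had log2 changes of -0.93 and -0.74 (adjusted p = 0.00446 and 0.043) and passed with 2 or more marker UMIs (0.022 and 0.0487). Both were lost without knockout mouse 1 (0.0991 and 0.498) and knockout mouse 2 (0.126 and 0.159), and Myd88 without control mouse 1 (0.0509) and control mouse 2 (0.102). Tlr12 had 53.5 and 50.1 CPM in knockout cDC1, against 15.6 and 14.8 CPM in control cDC1 (log2 change 1.76 ± 0.26, SE, adjusted p = 0.00215). It passed with 2 or more marker UMIs (1.52, adjusted p = 0.0113) and missed the threshold without knockout mouse 1 (0.0528). Sting1, the adaptor for cytosolic DNA, had 38.2 and 58.4 CPM, against 97.0 and 127 CPM in control cDC1 and fell by 1.20 ± 0.23 (SE, adjusted p = 0.0109). Nlrp3, an inflammasome sensor, had 20.4 and 27.5 CPM, against 58.3 and 66.5 CPM in control cDC1 and fell by 1.38 ± 0.24 (SE, adjusted p = 0.00494). Both were called with 2 or more marker UMIs (-1.40 and -1.28, adjusted p = 0.00589 and 0.0394) and lost without knockout mouse 1 (0.202 and 0.14).

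Interferon genes did not move as 1 block. Of 35 type I interferon response genes 3 rose and none fell, against 2.74% and 3.46% of all genes. Of the 35, 27 had a positive log2 change, and the list median of 0.54 lay above the 0.03 of all genes. That median was 1.73 without control mouse 1, where 8 genes rose, 0.14 without control mouse 2, and 0.92 and 0.26 without knockout mouse 1 or 2. Mx1, an antiviral GTPase, had 78.7 and 72.8 CPM in knockout cDC1, against 20.5 and 18.5 CPM in control cDC1. It rose by 1.93 ± 0.23 (SE, adjusted p = 0.000569), and was called without any 1 mouse and in both narrower gates (1.80 and 1.41, adjusted p = 0.00376 and 0.0361). Irf7 and Ifit3 varied between mice of a genotype and did not pass: Irf7 had 222 and 296 CPM in knockout cDC1 and 145 and 53.6 CPM in control cDC1 (1.29, adjusted p = 0.342), and Ifit3 had 17.8 and 52.3 CPM against 25.5 and 0 CPM (1.02, adjusted p = 0.775). Irf7 was called without control mouse 1 (adjusted p = 0.00229) and without control mouse 2 (0.0417). Of 25 interferon gamma response genes 2 fell and none rose, against 3.46% and 2.74% of all genes, with a median of -0.65. They were Gbp2 and Gbp7, members of a family of close copies, with log2 changes of -1.37 and -1.90 (adjusted p = 0.011 and 0.0109), which did not pass with 2 or more marker UMIs (adjusted p = 0.363 and 0.0622) or without knockout mouse 1 (0.12 and 0.2), Gbp2 also not without knockout mouse 2 (0.0899) and Gbp7 not without control mouse 1 (0.196).

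Other lists ranged from no call to a share above that of all genes (2.74% rose and 3.46% fell). Of 28 proliferation genes none was called by edgeR or by DESeq2, with 8 and 0 at an unadjusted p under 0.05, and Mki67 had 65.7 and 50.1 CPM in knockout cDC1 and 37.0 and 46.2 CPM in control cDC1 (log2 change 0.53, adjusted p = 0.241). Of 25 dendritic cell transcription factors 3 rose and 2 fell, but 1 rose and 1 fell of the 24 tested with 2 or more marker UMIs and none was called without knockout mouse 1. Of 11 DNA methylation enzymes 1 fell. Of 23 oxidative phosphorylation genes 1 fell, but 22 had a negative log2 change, with a median of -0.28 against 0.03 over all genes. With 2 or more marker UMIs none of them was called by edgeR (11 at an unadjusted p under 0.05), and 21 were negative (median -0.32). With 6 or more, 20 were negative (median -0.24). Of 25 lysosome and lipid genes 7 fell and none rose, but none of the 22 tested with 2 or more marker UMIs was called by edgeR (8 at an unadjusted p under 0.05), and the list shares Apoe and Trem2 with the macrophage markers. Omitting a knockout mouse (1 or 2) gave 1 or 2 that fell, and omitting a control mouse (1 or 2) gave 3 or 12. Of 23 adhesion genes 4 rose and 3 fell, and 3 rose and 2 fell of the 22 tested with 2 or more marker UMIs. No fall in that list was called without knockout mouse 1, where 2 genes rose, and 1 gene rose and 3 fell without control mouse 1. Klf2, a transcription factor of circulating cells, rose by 1.39 ± 0.18 (SE, adjusted p = 0.000982) and Cd81, a tetraspanin, by 1.36 ± 0.18 (SE, adjusted p = 0.000982). Cd81 was called in all 25 other fits made, and Klf2 was called with 2 or more marker UMIs (1.07, adjusted p = 0.0164) but not without control mouse 1 (0.0879).

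To ask which changes differed between cDC1 and cDC2, a genotype by cell type term was fitted over both, with mouse as a block, for 9299 genes. 63 genes passed (0.677%), 36 with a higher and 27 with a lower genotype effect in cDC1. In cDC2, 691 of 8501 genes rose (8.13%) and 764 fell (8.99%), from more cells in all but 1 mouse, so counts of calls in the 2 cell types are not compared. Both cell types come from the same mice. The heat shock gene Hspa1a had like changes in cDC1 and cDC2 (1.89 and 1.83, difference 0.05 ± 0.10, SE, adjusted p = 0.906).

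Ifngr1 was among the genes whose effect was more positive in cDC1. In cDC2, scaled by TMM factors of this joint fit, it had 383 and 373 CPM in knockout mice and 305 and 355 CPM in control mice, a log2 change of 0.21 that did not pass (adjusted p = 0.32), and the difference from cDC1 was 0.66 ± 0.14 (SE, adjusted p = 0.0424). Ppt1 also differed, on the same scale, with 64.6 and 59.7 CPM in knockout cDC2 and 72.8 and 68.5 CPM in control cDC2 and a difference of 1.13 ± 0.15 (SE, adjusted p = 0.0011). H2-Oa and Cadm1 rose more in cDC2 than in cDC1 (differences of -0.94 ± 0.18 and -2.30 ± 0.48, SE, adjusted p = 0.0195 and 0.0391). For these 4 genes the difference was called with 2 or more marker UMIs too (adjusted p = 0.00256, 0.0037, 0.00333 and 0.0131). Summed B cell markers in cDC2, scaled by total UMIs alone, were 2169 and 883 CPM in knockout mice and 137 and 84.4 CPM in control mice. B cells express H2-Oa, and their part in its rise in cDC2 was not tested. The Cd8a change was 0.21 in cDC2 (adjusted p = 0.952), where Cd8a, scaled by total UMIs alone, had 12.1 and 11.4 CPM in knockout mice and 0 and 24.4 CPM in control mice, and its difference from cDC1 did not pass (2.85 ± 0.92, SE, adjusted p = 0.294).

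The genes whose levels most resembled those of Xcr1 were sought over 41 points, each a gated class of at least 20 cells in 1 mouse. By Pearson's r of log2(CPM + 1), Gcsam (r = 0.944), Gpr141b (0.941), Snx22 (0.925), Tlr3 (0.893), Ccser1 (0.880), Plpp1 (0.871), Mycl (0.862) and Txndc15 (0.855) came first. Classes of 1 mouse share a library, and the values are a description. Xcr1 was also used to gate cDC1 and cDC2, so its levels over the classes were set in part by the gates. Scaled by total UMIs alone, Gcsam had 105 and 95.6 CPM in knockout cDC1 and 58.6 and 97.4 CPM in control cDC1, and its highest mean in any other class was 3.03 CPM, in mature dendritic cells. Mycl, a transcription factor of cDC1, averaged 36.5 CPM in plasmacytoid dendritic cells, so its level set cDC1 apart less than that of Gcsam.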

How the data were processed

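The matrices deposited by the authors hold unscaled UMI counts for each gene in each barcode. Per the submitters' processing notes, Cell Ranger 8.0.1, Seurat 5.0.1, R 4.4.1 and build GRCm39 were used; cell calling settings are not given in the sources used here. T cell receptor contig tables were used only to mark barcodes. Kept were barcodes with 200 genes or more whose mitochondrial UMIs did not exceed 10% (10741 and 11594 in knockout mice, 12281 and 13598 in control mice). Doublets were called with scanpy 1.11.5 (Scrublet) and kept, except in 1 alternative. UMIs were summed per mouse over cDC1 and tested with edgeR 4.0.16 (quasi-likelihood, robust, filterByExpr, TMM, two-sided), with DESeq2 1.42.0 as an alternative. Free RNA was estimated per mouse from B, T and neutrophil genes in cDC1 against the library. The 30 gene lists, the members and the tests were chosen with earlier results of these data known. Genes named were the 12 largest changes in each direction with genotypes apart and a mean of at least 20 CPM, up to 4 called genes per list, and a set of cDC1 genes. Others, and genes shown as examples of a list, were chosen after their values were seen. On simulated counts for this comparison (9054 genes, 200 changed), 56% of 2-fold and 89% of 4-fold changes were recovered with gene-wise spread, with 35 of 180 calls wrong, and 47% and 89% with trended spread, with 5 of 141 wrong. Exact permutation and Clopper-Pearson intervals used scipy 1.17.1. The alternatives changed scaling, filters, test, block, gates, doublets and mice.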

Additional observations from a re-analysis of the deposited data

Results flagged for a closer look

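The genotype effect on 12 genes of the lists or of cDC1 identity differed between cDC1 and cDC2 by the genotype by cell type term of edgeR (adjusted p under 0.05, mouse as a block). The values are log2 changes in cDC1 minus those in cDC2. More negative in cDC1 were Cd14 (-1.36), Ccr1 (-1.61), Ctss (-0.52) and Abca1 (-3.09). H2-Oa (-0.94), Cadm1 (-2.30) and H2-Eb1 (-0.31) rose in both cell types, with a larger log2 change in cDC2. For Cadm1 that change started from a very low level in control cDC2. B cells, whose summed markers were higher in knockout than in control cDC2, express H2-Oa, and their part in its difference was not tested. H2-K1 (-0.45) rose in cDC2 (log2 change 0.63, adjusted p = 0.002) and did not pass in cDC1. More positive in cDC1 were Ppt1 (1.13), Naaa (1.60), Ifngr1 (0.66) and Jun (0.53).

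Naaa, an amidase abundant in cDC1, had, scaled by TMM factors of the joint fit, 726 and 625 CPM in knockout cDC1 and 664 and 864 CPM in control cDC1, where its change did not pass (log2 change -0.16, adjusted p = 0.628). In cDC2 it had 50.5 and 61.5 CPM in knockout mice and 165 and 227 CPM in control mice and fell by 1.77 (adjusted p = 4.94e-05). With 2 or more marker UMIs the difference was called for Ppt1, H2-Oa, Ifngr1, Cadm1, Naaa, H2-Eb1 and Jun, and not for Cd14, Ccr1, Ctss, Abca1 and H2-K1 (adjusted p = 0.9, 0.431, 0.204, 0.235 and 0.13). Those that were lost include Cd14 and Abca1, which macrophages and monocytes express. Their part in these differences was not tested.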

How the results depend on the processing

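The 561 genes called became 936 with no count filter, 257 with 2 or more marker UMIs, 197 when B cell genes, contigs and doublets were also removed, 114 with 6 or more, 246 with DESeq2, and 105 to 677 without 1 mouse (228, 243, 231 and 616 with 2 or more marker UMIs). The log2 change of the share ran from 1.29 to 2.55 in other settings, was 1.52 outside the macrophage, monocyte and B cell gates, and 1.36 to 2.43 without 1 mouse. The difference in the share among cDC1 and cDC2 ran from -0.25 (without knockout mouse 1) to 23.2 points. The 63 genes that differed from cDC2 became 254 with no filter and 26 to 207 without 1 mouse. Knockout minus control shares with 2 or more marker UMIs were 7.65 points for Cd8a and -27.3 for Itgae at 2000 UMIs, 4.13 and -14.8 at 1000 UMIs, and 14.6 and -25.9 without thinning. The causes of these changes were not tested.

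For the 95 called genes among 104, 2326 values under alternatives included 1834 on the same side of the threshold, 479 weaker and 13 with the other sign, and 12 genes were called under every alternative in which they were tested (22 to 25). With the other sign were Ccl2 (-0.90 over all members; 1.37 with 2 or more marker UMIs, 1.46 when B cell genes, contigs and doublets were also removed, 3.16 with 6 or more, 1.30, 1.52, 8.76 and 0.74 with 2 or more and without knockout mouse 1, 2, control mouse 1 or 2), Lyz2 (0.28 with 6 or more), S100a4 (0.80) and Zeb2 (1.28). With 2 or more marker UMIs and without control mouse 1, Hilpda (0.34), Lyz2 (0.22) and Zeb2 (1.93) also turned, as did Tet2 (0.43), which was not called over all members.

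Replicate numbers 1 and 2 occur in both genotypes, but nothing says that they pair mice, and deviations of replicate 1 correlated at r = -0.106 over 9054 genes between the genotypes. With the replicate block 395 genes were called and the share changed by 1.87 (adjusted p = 0.0200). The crossed pairing, added after seeing the data, called 739 genes.

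With 47 and 89 control cells, levels of a few UMIs carry wide error, and the control members held more cells with 1 marker UMI than the knockout members.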
